A study of Homo sapiens with 18 samples.

Results

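RHOXF2-transfected HEK293 cells at 48 h after transfection were compared with RHOXF2-transfected cells at 24 h. The comparison took the 3 arrays labelled RHOXF2 at 48 h and the 3 labelled RHOXF2 at 24 h, so 6 of the 18 arrays of the series. HEK293 is a human embryonic kidney cell line that grows readily and expresses many neuronal genes. The other 12 arrays came from the same line given a RHOXF1 vector or a control vector, each read at both times on 3 arrays. Per the labels, all plasmids came from OriGene and were carried by Lipofectamine 2000 in serum-free medium. The transfection was transient, and the share of cells that took up a plasmid is not given in the sources used here. The protocol lists the GFP vector pCMV6-AC-GFP next to the RHOX clones, without saying whether the clones carry GFP too. The series text speaks of biological triplicates without saying whether they were separate cultures. The p-values therefore measure the spread between arrays of a group, pooled over all 6 groups. No untransfected group was analysed here, so all 6 groups share the exposure to plasmid and lipid reagent.

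RHOXF2 belongs to the reproductive homeobox (RHOX) genes, a cluster on the X chromosome that encodes homeodomain transcription factors. Homeodomains bind short DNA motifs, often around the core TAAT. In humans RHOXF2 is active mainly in germ cells of the testis, and HEK293 cells are not a germ cell model. The comparison asks how transcript levels differed between cells read 24 h and cells read 48 h after they were given the RHOXF2 vector.

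The values are log2 expression levels of transcript clusters, the units by which the array groups its probes, as the authors deposited them. A difference of 1 on this scale is 2-fold. Of 33297 clusters, 21214 carried a gene symbol and were tested. Array medians lay between 6.68 and 6.82. Of the 12 HEK293 markers, 10 lay above the median level on all 6 RHOXF2 arrays, and none lay below the lower quartile on all 6. Of 27 markers of other cell types, 5 lay above the median on all 6 arrays, 6 lay below the lower quartile on all 6, and none passed the test over time.

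One RHOXF2 array stood apart. On the first principal component of all 18 arrays, which held 34.1% of the variance and separated the times, the RHOXF2 arrays at 48 h lay at 11.98, 13.8 and -4.48 in the order of their replicate numbers, against -8.71, -16.7 and -14.9 at 24 h. Replicate 3 at 48 h thus lay between the times, while every RHOXF1 and control array at 48 h lay at 9.36 or above. Results are therefore given with this array and, where it changes them, without it. The array numbers in the labels run from 1 to 9 at 24 h and from 16 to 24 at 48 h. Time after transfection and array batch cannot be told apart in the RHOXF2 arrays alone. The RHOXF1 and control arrays carry the same time and the same batch, and setting the RHOXF2 change against theirs holds both equal.

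The transfected gene itself was high at both times. RHOXF2 shares 1 cluster with RHOXF2B, a copy too similar for the array to tell from it. This cluster read 12.95, 12.96 and 12.85 at 48 h, against 12.78, 12.83 and 12.87 at 24 h. The arrays of the times overlapped, and the difference was 0.09 ± 0.23 (log2, SE, limma adjusted p = 0.889). Here and below, limma's SE and p rest on a spread pooled over all 6 groups. They do not measure the spread of the RHOXF2 arrays alone. RHOXF1, its neighbour in the gene family, read 7.75, 7.03 and 9.12 at 48 h, against 6.94, 7.61 and 7.89 at 24 h. The times overlapped here as well (0.49 ± 0.34, limma adjusted p = 0.521), and without replicate 3 at 48 h, which held the highest RHOXF1 level, the difference was -0.09.

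Other transcripts of the RHOXF2 cells moved in both directions. By limma, 264 clusters passed an adjusted p of 0.05 (1.24% of those tested), 209 of them higher at 48 h (0.985%) and 55 lower (0.259%). An unadjusted p under 0.05 was reached by 3539 clusters, where 1060.7 are expected by chance. The changes were modest: 50 of the higher and 24 of the lower clusters differed by at least 1.5-fold, 5 higher clusters by at least 2-fold, and no lower cluster did. The median difference was 0.49 among the clusters that rose and -0.56 among those that fell. In bulk RNA, a change in the number of cells that express a gene and a change in its RNA per cell cannot be told apart. Centring each array on its median gave 375 higher and 45 lower. The count depended on single arrays. It was 801 without replicate 3 at 48 h (480 higher and 321 lower, which is 3.78%, 2.26% and 1.51% of those tested), and 244 of the 264 were among these. It was 41 without replicate 1 at 48 h, 16 without replicate 2 at 48 h, 13 without replicate 3 at 24 h and 4 without replicate 2 at 24 h. Of the 15 largest rises and 15 largest falls named here, which all kept their direction in every alternative, 3 rises and no fall still passed by limma without replicate 2 at 24 h, and 15 rises and 13 falls without replicate 3 at 48 h.

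The 15 largest rises and 15 largest falls named here were picked only among called clusters without overlap between the times. Their lack of overlap therefore follows from the choice and adds no support. ANKRD1 had the largest rise. It encodes a cardiac ankyrin repeat protein and is a widely used readout of the YAP/TEAD pathway, which relays cell contact and tension to the nucleus. It read 7.90, 8.45 and 7.39 in RHOXF2 cells at 48 h, against 5.68, 6.40 and 6.27 at 24 h. All arrays at 48 h lay above all at 24 h, with replicate 3 the lowest of the later ones. The rise was 3.47-fold (1.79 ± 0.20, limma adjusted p = 0.000242), and 2.06 on the log2 scale without replicate 3 at 48 h. It passed the test under all 14 alternatives tried.

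RFPL4A, a ret finger protein-like gene whose mouse relative is known from oocytes, rose in both of its clusters. Its brightest cluster read 6.32, 6.58 and 6.17 at 48 h, against 5.27, 5.10 and 5.47 at 24 h. Its other cluster read 6.04, 6.53 and 6.06 at 48 h, against 5.17, 4.97 and 5.13 at 24 h. Neither cluster's times overlapped, and every level was below the median over all named clusters, 7.47. The rises were 2.11-fold (1.08 ± 0.12, limma adjusted p = 0.000196) and 2.18-fold (1.12 ± 0.12, limma adjusted p = 0.000196), and both passed under all 14 alternatives. A near-identical gene, RFPL4AL1, exists, so which copy these clusters report is uncertain. RFPL4A was the only gene of the germ cell and meiosis list that passed, 1 of 46 measured, where 0.985% of all clusters rose. The zona pellucida gene ZP3 read 0.72 higher (limma adjusted p = 0.0532), and the median of the list was 0.05, beside 0.01 over all clusters.

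HSPB8, a small heat shock protein that works with BAG3 in clearing misfolded proteins, read 7.30, 7.95 and 7.63 at 48 h, against 6.64, 6.36 and 6.47 at 24 h. The times did not overlap, and the rise was 2.20-fold (1.14 ± 0.14, limma adjusted p = 0.000538), called under all 15 alternatives. L1CAM, a neural cell adhesion molecule, read 9.68, 9.96 and 9.44 at 48 h, against 9.04, 8.18 and 8.52 at 24 h. It rose 2.16-fold without overlap (1.11 ± 0.24, limma adjusted p = 0.0336) and was called under 9 of 15 alternatives. ARRDC4, an arrestin domain gene switched on by the glucose sensor MondoA/MLX, read 9.88, 10.07 and 9.24 at 48 h, against 9.09, 8.62 and 8.61 at 24 h. The arrays did not overlap, with replicate 3 the lowest at 48 h and close to the highest at 24 h. ARRDC4 rose 1.94-fold (0.96 ± 0.21, limma adjusted p = 0.0336).

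The promoters of 4 of these genes are shown because they are the largest rises with a textbook regulator whose motif can be searched for, or, for RFPL4A, because the gene moved in cells given a homeodomain factor. Each is the 250 bases before the gene's start in RefSeq (build GRCh38.p14), 5′ to 3′ on the gene's strand. All 4 genes were matched by symbol. Capitals mark the motif searched on both strands, with overlapping matches counted: TAAT, the homeodomain core, in RFPL4A (chr19:55758847-55759096, plus strand, 8 matches), GGAATG, bound by TEAD factors, in ANKRD1 (chr10:90921088-90921337, minus strand, 2 matches), GAANNTTC, a pair of heat shock element units, in HSPB8 (chr12:119178681-119178930, plus strand, 1 match), and CACGTG, the E-box bound by MondoA/MLX and many other factors, in ARRDC4 (chr15:97960453-97960702, plus strand, 1 match).
RFPL4A: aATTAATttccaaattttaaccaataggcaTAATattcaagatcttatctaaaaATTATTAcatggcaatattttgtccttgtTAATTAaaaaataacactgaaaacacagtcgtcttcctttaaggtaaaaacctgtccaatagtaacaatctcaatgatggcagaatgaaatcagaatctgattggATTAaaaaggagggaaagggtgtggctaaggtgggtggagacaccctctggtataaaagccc
ANKRD1: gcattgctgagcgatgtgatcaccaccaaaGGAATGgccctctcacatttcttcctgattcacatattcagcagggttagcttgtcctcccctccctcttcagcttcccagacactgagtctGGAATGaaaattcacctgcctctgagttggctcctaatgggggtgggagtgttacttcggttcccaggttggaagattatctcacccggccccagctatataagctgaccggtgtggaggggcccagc
HSPB8: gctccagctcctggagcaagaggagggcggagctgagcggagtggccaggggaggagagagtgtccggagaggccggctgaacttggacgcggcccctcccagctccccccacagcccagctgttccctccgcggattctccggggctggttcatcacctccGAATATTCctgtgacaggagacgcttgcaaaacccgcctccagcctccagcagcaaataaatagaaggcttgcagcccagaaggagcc
ARRDC4: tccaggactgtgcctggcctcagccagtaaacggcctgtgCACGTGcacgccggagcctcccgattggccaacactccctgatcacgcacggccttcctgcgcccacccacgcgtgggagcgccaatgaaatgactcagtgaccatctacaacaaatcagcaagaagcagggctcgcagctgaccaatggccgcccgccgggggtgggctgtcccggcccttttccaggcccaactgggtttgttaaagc
Among 35116 RefSeq promoters of the same length, TAAT was in 47.44%, GGAATG in 11.89%, GAANNTTC in 5.781% and CACGTG in 6.345%. These are shares of promoters with any match. The number of matches per promoter was not compared, so the 8 in RFPL4A have no background here. A match is a run of letters and not a shown binding site. Each promoter was marked for 1 motif only, so the marks do not compare the genes. TAAT also stands unmarked in the ANKRD1 sequence, on both strands.

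**Figure D1:**
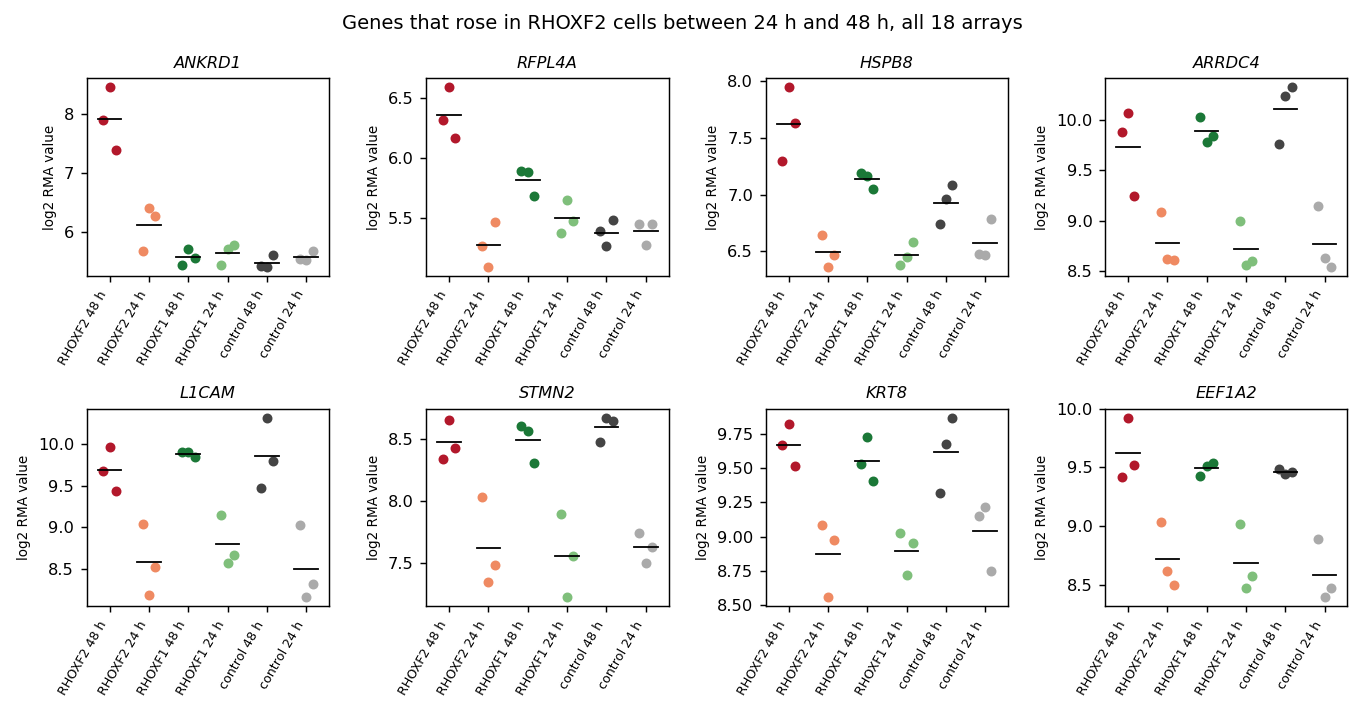
Log2 expression level (vertical axes, scaled to each gene and not starting at 0) of 8 genes that rose, in RHOXF2, RHOXF1 and control cells, 48 h left of 24 h, with 1 point per array in the order of replicate numbers and a bar at the group mean. In RHOXF2 cells ANKRD1 lies between 7.39 and 8.45 at 48 h and between 5.68 and 6.40 at 24 h, while no array of the other vectors is above 5.78. L1CAM, ARRDC4, STMN2, KRT8 and EEF1A2 are higher at 48 h under all 3 vectors.

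The next rises lay between 0.80 and 0.93 on the log2 scale. All named rises were chosen to have no overlap between times. GFRA2, the receptor for the neuronal growth factor neurturin, rose by 0.93 (limma adjusted p = 0.0256). EEF1A2, the form of translation elongation factor 1-alpha used by neurons and muscle, rose by 0.91 (adjusted p = 0.0205). STMN2, a microtubule-destabilizing protein of growing axons, rose by 0.85 (adjusted p = 0.0243), and NECAB1, a neuronal calcium-binding protein, by 0.80 (adjusted p = 0.00696). Of the 43 neuronal and synaptic genes listed for HEK293, 2 passed, both higher, where 0.985% of all clusters rose: STMN2 and the growth cone protein GAP43 (0.54). The list had 33 members higher and 10 lower with a median of 0.14. In control cells 13 members rose and 2 fell, where 9.89% of all clusters rose and 7.89% fell, and the median was 0.02.

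The others were genes of the cell surface, the matrix, the cytoskeleton and metabolism. MRC2, a collagen uptake receptor, rose by 0.90 (limma adjusted p = 0.0203), and EDIL3, a secreted integrin ligand, by 0.90 (adjusted p = 0.0338). KRT8, a keratin of simple epithelia, rose by 0.80 (adjusted p = 0.0254). LIPH, a phospholipase that makes lysophosphatidic acid, rose by 0.84 (adjusted p = 0.0309). SELENOP, the selenium carrier protein, rose by 0.92 (adjusted p = 0.0336), and PDE8B, a phosphodiesterase of cyclic AMP, by 0.80 (adjusted p = 0.0143). In the list of epithelial junction and epithelial-mesenchymal transition genes, 2 of 28 passed, both higher, where 0.985% of all clusters rose. They were KRT8 and the junction protein E-cadherin (CDH1, 0.51). Fibronectin (FN1) read 0.74 (limma adjusted p = 0.0524).

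The largest fall among the named genes was that of a small nucleolar RNA. C/D box snoRNAs guide methylation of ribosomal RNA, and most are cut from introns of host genes. SNORD77 read 4.67, 4.86 and 4.47 at 48 h, against 5.48, 5.70 and 5.53 at 24 h. All arrays at 48 h lay below all at 24 h, as the choice of the largest falls required. SNORD77 fell by 0.90 on the log2 scale (SE 0.17, limma adjusted p = 0.0242). SNORD75, from the same host gene GAS5, read 8.39, 8.60 and 8.53 at 48 h, against 9.38, 9.27 and 9.42 at 24 h. It too had no overlap, and fell by 0.85 (SE 0.18, adjusted p = 0.0312).

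Of 115 C/D box snoRNAs measured, 7 passed the test and all 7 were lower at 48 h, where 0.259% of all clusters fell: SNORD77, SNORD75, SNORD51 (-0.74), SNORD1A (-0.66), SNORD81 (-0.58), SNORD78 (-0.56) and SNORD7 (-0.56). SNORD78 and SNORD81, like SNORD77 and SNORD75, lie in GAS5, SNORD51 in EEF1B2 and SNORD1A in SNHG16. The list's median was -0.10, with 73 members lower and 42 higher. Without replicate 3 at 48 h the count was 4, where 1.51% of all clusters fell, and the median was -0.02. Of the 77 H/ACA box snoRNAs and scaRNAs, which guide pseudouridylation, none passed by limma, and the median was -0.07. Of the 77, 9 had an unadjusted p under 0.05, all lower, where 1350 of all 21214 clusters were lower at that threshold. Among the 6 snoRNA host genes listed none passed by limma either (1 had an unadjusted p under 0.05), and 5 of them read higher (median 0.18).

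After these values were seen, all 10 clusters that carry a snoRNA of GAS5 were listed. All 10 read lower at 48 h, with a median of -0.53. Where 0.259% of all clusters fell, 5 of the 10 passed the test. SNORD77, SNORD75, SNORD78 and SNORD81 were known to pass before the list was made, so this share adds no support. The cluster shared by GAS5 and SNORD47 also passed. It read 9.54, 9.70 and 9.05 at 48 h, against 10.02, 10.20 and 10.10 at 24 h. Its fall was 0.67 on the log2 scale (SE 0.15, limma adjusted p = 0.0384). Without replicate 3 at 48 h, whose level was the lowest in that cluster, 2 of the 10 passed and the median was -0.41. In that setting 1.51% of all clusters fell. The median of the same clusters was -0.27 in RHOXF1 cells, with 1 past the test, and 0.05 in control cells, with 0 past the test by limma (1 with an unadjusted p under 0.05). The difference from the control time change passed for 0 of the 10 by limma, and its smallest limma adjusted p was 0.488. An unadjusted p under 0.05 was reached by 6 of the 10, and by 1857 of all 21214 clusters. These 10 clusters lie within one host transcript and are not independent of each other.

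**Figure D2:**
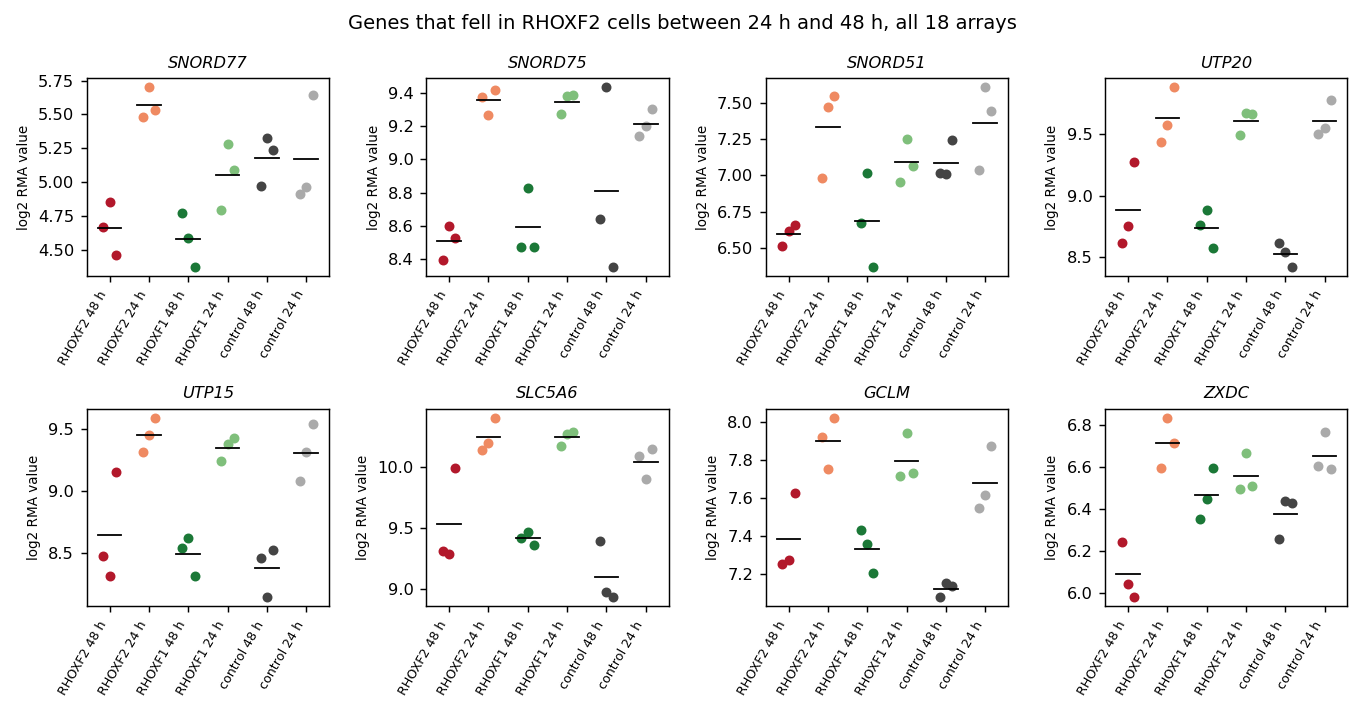
Log2 expression level (vertical axes, scaled to each gene and not starting at 0) of 8 genes that fell, in RHOXF2, RHOXF1 and control cells, 48 h left of 24 h, with 1 point per array in the order of replicate numbers and a bar at the group mean. In RHOXF2 cells SNORD77 lies between 4.47 and 4.86 at 48 h and between 5.48 and 5.70 at 24 h, while for UTP15 and UTP20 replicate 3 at 48 h lies nearest to the 24 h arrays.

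Among the 15 largest falls, 3 were of factors that build ribosomes. UTP15 and UTP20 are parts of the small-subunit processome, the particle that trims the precursor of 18S ribosomal RNA. UTP15 read 8.48, 8.31 and 9.16 at 48 h, against 9.32, 9.45 and 9.60 at 24 h. UTP20 read 8.61, 8.75 and 9.28 at 48 h, against 9.43, 9.58 and 9.88 at 24 h. In both, replicate 3 at 48 h lay just below the 24 h arrays and the other replicates well below. UTP15 fell by 0.81 (SE 0.17, limma adjusted p = 0.0312) and UTP20 by 0.75 (SE 0.14, adjusted p = 0.0243), on the log2 scale. RRP15, a factor of the large subunit, fell by 0.61 (adjusted p = 0.0205).

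Of 41 nucleolar ribosome biogenesis genes, 2 passed, both lower (0.259% of all clusters), and 38 read lower with a median of -0.22. Without replicate 3 at 48 h, 12 passed, all lower (1.51% of all clusters), and the median was -0.31. In RHOXF1 cells 11 of the 41 fell (median -0.28), where 1.35% of all clusters fell, and in control cells 26 fell (median -0.37), where 7.89% did. Of 64 cytosolic ribosomal protein genes, represented by their brightest clusters, none passed by limma, and 49 read higher (median 0.06). Of the 64, 5 had an unadjusted p under 0.05, 4 of them higher, where 3539 of all 21214 clusters reached that threshold. RPL27A was among the 15 largest falls through a dimmer cluster (-0.75, adjusted p = 0.0312), while its brightest cluster read 0.08, so its clusters disagreed.

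SLC5A6, the sodium-dependent transporter of biotin and pantothenate, read 9.31, 9.29 and 9.99 at 48 h, against 10.13, 10.19 and 10.40 at 24 h. Its replicate 3 at 48 h lay nearest to the 24 h arrays, without overlap, and SLC5A6 fell by 0.71 (limma adjusted p = 0.0324). DPH2, an enzyme of diphthamide synthesis on elongation factor 2, fell by 0.63 (adjusted p = 0.0424), and the cilia and flagella protein CFAP44 by 0.76 (adjusted p = 0.0371). The zinc finger gene ZXDC fell by 0.63 (adjusted p = 0.0087). Noncoding genes were LINC01963 (-0.87), the pseudogene KLRA1P (-0.72) and DLEU2 (-0.64), host of miR-15a and miR-16-1.

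Of 23 chaperone genes measured, HSPB8 was the 1 that passed, where 0.985% of all clusters rose. Of the 23, 8 read higher and 15 lower, and the median was -0.06. The brightest cluster shared by HSPA1A and HSPA1B, the stress-inducible HSP70 pair, read 13.48, 13.51 and 13.31 at 48 h, against 13.31, 13.41 and 13.52 at 24 h. The arrays of the times overlapped, and the difference was 0.02 (limma adjusted p = 0.936), with a sign that changed with the array left out. The small chaperones HSPB1 (0.53, adjusted p = 0.0577) and CRYAB (0.76, adjusted p = 0.0665) read higher without passing. HSPA6, a strictly inducible HSP70, read 8.70, 9.12 and 7.43 at 48 h, against 6.89, 7.70 and 7.84 at 24 h. Replicate 3 at 48 h lay within the range of 24 h and the other later arrays above it. Its difference was 0.94 (limma adjusted p = 0.115), and 1.44 without that array. In that setting HSPA6 and CRYAB passed besides HSPB8, where 2.26% of all clusters rose. HSPA4L (-0.01), DNAJB4 (-0.06), FKBP4 (-0.05) and HSPA2 were near 0, and their sign changed with the array left out or the scaling.

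In control cells 10 of the 23 chaperone genes fell with time and 1 rose, where 7.89% of all clusters fell and 9.89% rose, and the median was -0.25. HSPH1, an HSP110 chaperone, read -0.32 ± 0.15 in RHOXF2 cells (limma adjusted p = 0.298) and fell by 1.22 in control cells. By limma, none of the 23 differed from the control time change past the test, and the median of that difference was 0.15. Of the 23, 6 had an unadjusted p under 0.05 for it, where 1857 of all 21214 clusters did. HSPB8 rose by 0.67 in RHOXF1 cells (limma adjusted p = 0.0135) and read 0.36 in control cells (adjusted p = 0.0753). Its difference from the control change was 0.78 (adjusted p = 0.488).

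Among the remaining lists few members passed, and no list had more than 2. Over all clusters 0.985% rose and 0.259% fell. YAP/TEAD targets had 2 of 26 higher, ANKRD1 and the RNA-binding protein gene RBMS3 (0.76), with a median of 0.13. CCN1 and CCN2, further widely used YAP targets, chosen here after their values were seen, read 0.04 and 0.05. Glucose-sensing and starvation genes had 1 of 30 higher, ARRDC4, and 27 read higher (median 0.22). TXNIP, the best known target of MondoA/MLX, read 0.66 (limma adjusted p = 0.0594). Without replicate 3 at 48 h, 6 of these 30 passed, all higher, where 2.26% of all clusters rose. In control cells 11 of the 30 rose and 1 fell (median 0.26), where 9.89% of all clusters rose and 7.89% fell. ATF4 targets, which respond to amino acid shortage, had none of 27 past the test by limma, and 22 read higher (median 0.25). Of the 27, 10 had an unadjusted p under 0.05, 8 of them higher. Over all 21214 clusters 3539 did, 2189 of them higher. In control cells 12 of the 27 ATF4 targets rose past the test and 1 fell (median 0.43).

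Few cell cycle genes passed, where 0.985% of all clusters rose and 0.259% fell. Of 36 genes of the G1/S phase and DNA replication, E2F2 rose by 0.32 (limma adjusted p = 0.0453) and the checkpoint adaptor CLSPN fell by 0.47 (adjusted p = 0.0473), and the median was -0.01. None of 36 mitotic genes passed by limma, and 26 read lower (median -0.13). Of the 36, 11 had an unadjusted p under 0.05, all lower, where 1350 of all 21214 clusters were lower at that threshold. In the cholesterol list the regulator SREBF2 rose by 0.31 (adjusted p = 0.0421), while 12 of 18 members read lower. Without replicate 3 at 48 h neither E2F2 (0.28) nor SREBF2 (0.29) passed. In the oxidative stress list GCLM, a subunit of the enzyme that starts glutathione synthesis, fell by 0.51 (adjusted p = 0.0341). The proteasome subunit PSMA3 fell by 0.37 (adjusted p = 0.0482), with 36 of 44 subunits lower (median -0.20). In control cells 22 of the 44 fell (median -0.26), where 7.89% of all clusters fell. PSMA3 passed under 6 of 15 alternatives, E2F2 under 6 of 15, and CLSPN, SREBF2 and GCLM under 9 of 15 each. The protease cathepsin B (CTSB, 0.51), the cell death gene BMF (0.48), the latent TGF-beta binding protein gene LTBP2 (0.53), HOXB4 (0.48), KRTAP19-5 (0.50) and the trophoblast regulator TFAP2C (0.41) were single members that rose in their lists. Lists with no member past the test by limma covered endoplasmic reticulum chaperones, immediate early genes, hypoxia and glycolysis, interferon-stimulated genes, histones, targets of p53 and NF-kappa-B, metallothioneins and microRNA genes. In each of these, 1 to 11 members had an unadjusted p under 0.05, where 3539 of all 21214 clusters did.

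**Figure D3:**
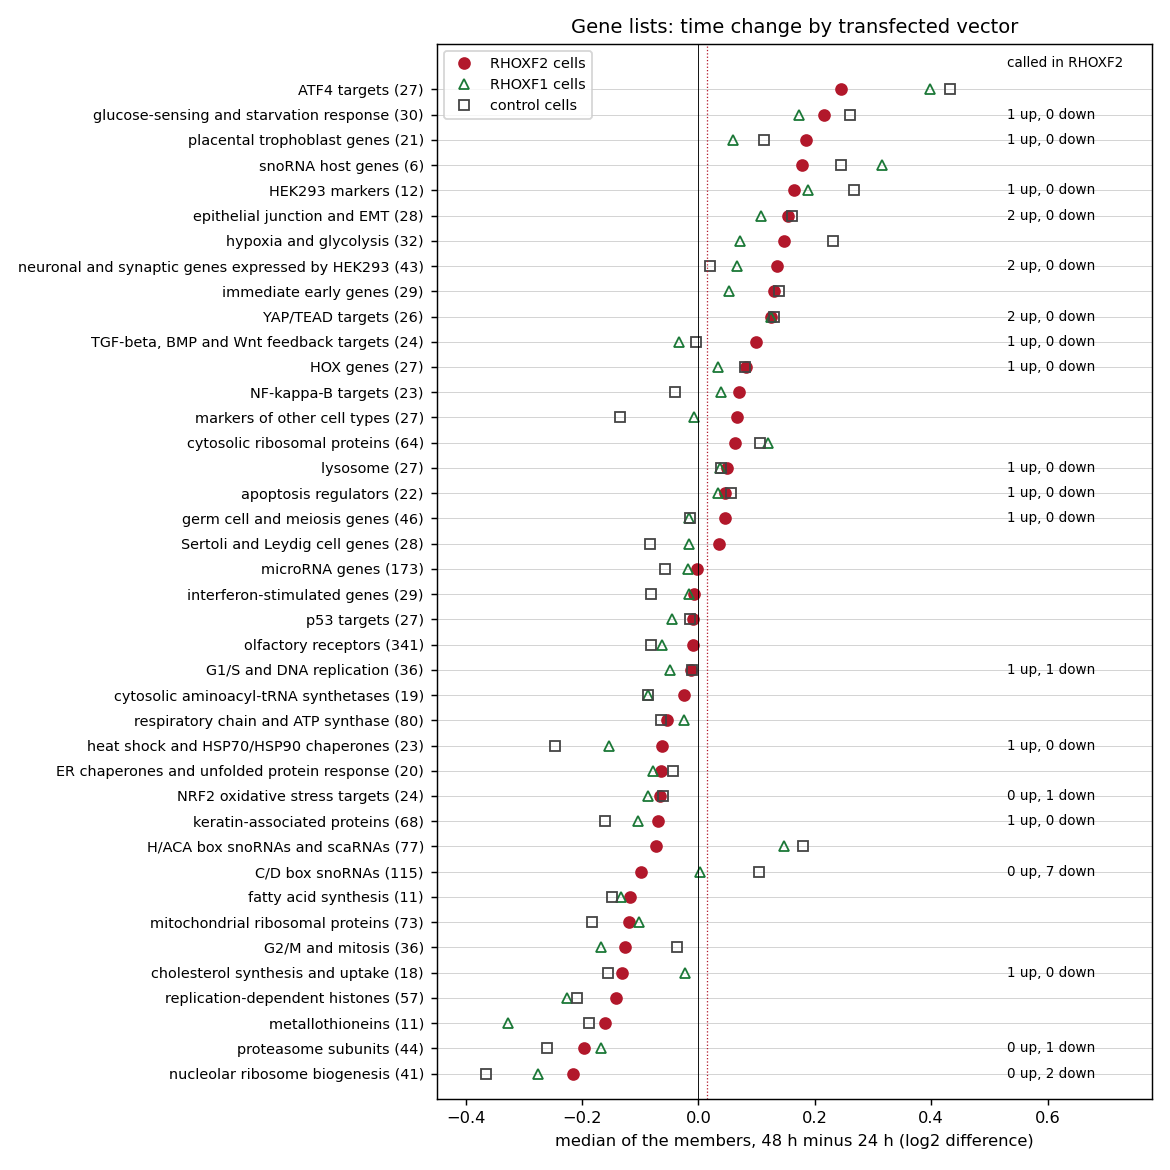
Median log2 difference, 48 h minus 24 h (horizontal axis), of the members of each gene list in RHOXF2 cells (filled circles), RHOXF1 cells (triangles) and control cells (squares), with the number measured in brackets, a dotted line at the median over all clusters in RHOXF2 cells, and at the right the members that passed the test in RHOXF2 cells. Nucleolar ribosome biogenesis is the lowest list in RHOXF2 cells at -0.22, and C/D box snoRNAs lie at -0.10 in RHOXF2 cells and 0.10 in control cells.

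Most of what rose in RHOXF2 cells over the day also rose in cells without RHOXF2. The differences share no arrays, although they share the array batches and limma's pooled spread. By limma, 3772 clusters passed over time in control cells (17.8% of those tested) and 937 in RHOXF1 cells (4.42%). Of the 209 clusters that rose in RHOXF2 cells, 177 also rose in control cells, which is 84.7% of the RHOXF2 rises and 8.44% of the 2098 rises of control cells, where 9.89% of all clusters rose. In RHOXF1 cells 158 of the 209 rose, 75.6% of the RHOXF2 rises and 24.3% of the 650 rises of RHOXF1 cells, where 3.06% of all clusters rose. The median change of the 209 was 0.49 in RHOXF2 cells, 0.49 in RHOXF1 cells and 0.52 in control cells.

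Of the 55 clusters that fell in RHOXF2 cells, 34 also fell in RHOXF1 cells (61.8% of the 55, and 11.8% of the 287 falls of RHOXF1 cells, where 1.35% of all clusters fell). In control cells 30 of them fell (54.5% of the 55, and 1.79% of the 1674 falls of control cells, where 7.89% of all clusters fell). Their median change was -0.56 in RHOXF2 cells, -0.45 in RHOXF1 cells and -0.32 in control cells. The RHOXF2 values chose these clusters, so their medians are a description and not a comparison of sizes. Across all 21214 clusters the time changes of RHOXF2 and control cells correlated at r = 0.635, and at 0.707 without replicate 3 at 48 h. Those of RHOXF2 and RHOXF1 cells correlated at 0.744, and at 0.793 without that array. These coefficients are over clusters, which are not independent replicates.

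**Figure D4:**
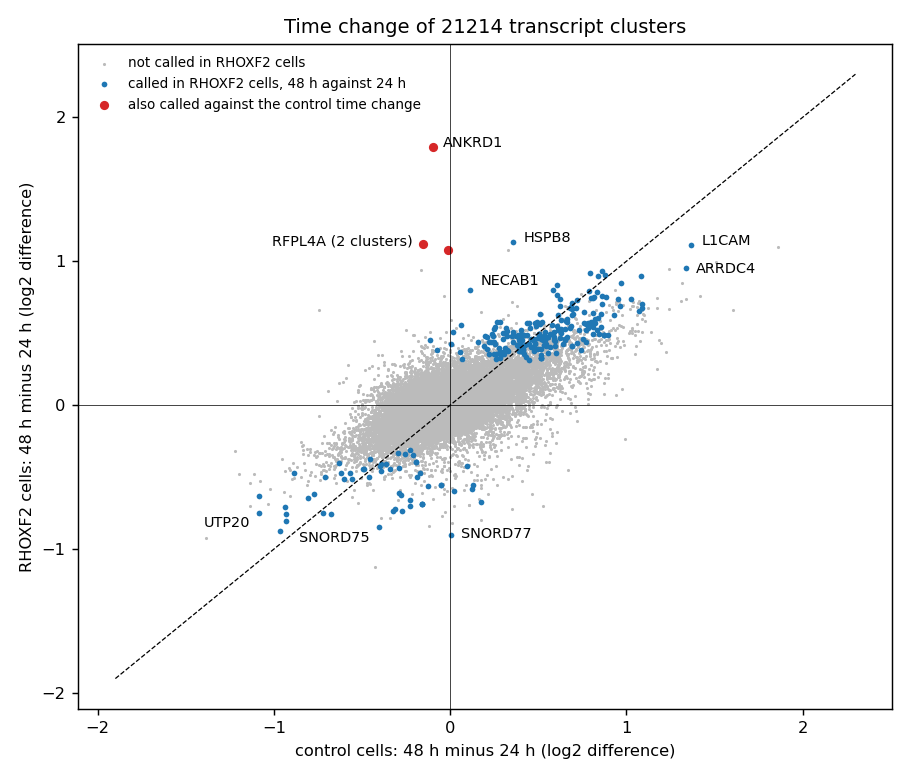
Log2 difference, 48 h minus 24 h, of each tested cluster in RHOXF2 cells (vertical axis) against control cells (horizontal axis), with 1 point per cluster and a dashed line where both are equal. Blue points are clusters that passed the test in RHOXF2 cells, and the 3 red points, ANKRD1 and both RFPL4A clusters, also differ from the control time change past the test.

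The change over time was also tested against that in control cells. For 3 clusters, ANKRD1 and both RFPL4A clusters, it differed by limma (0.0141% of those tested), all of them higher in RHOXF2 cells, and 1857 had an unadjusted p under 0.05, where 1060.7 are expected by chance. ANKRD1 read 5.42, 5.41 and 5.61 in control cells at 48 h, against 5.54, 5.52 and 5.67 at 24 h. In RHOXF1 cells it read 5.43, 5.72 and 5.57 at 48 h, against 5.45, 5.71 and 5.78 at 24 h. The times overlapped under both vectors, and the highest of these 12 arrays, at 5.78, lay below every RHOXF2 array at 48 h. The change in RHOXF2 cells exceeded that in control cells by 1.89 (log2, limma adjusted p = 0.0168) and that in RHOXF1 cells by 1.87 (adjusted p = 0.058).

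The brightest RFPL4A cluster read 5.39, 5.27 and 5.49 in control cells at 48 h, against 5.45, 5.28 and 5.45 at 24 h. In RHOXF1 cells it read 5.89, 5.88 and 5.68 at 48 h, against 5.37, 5.65 and 5.47 at 24 h. Control arrays of the times overlapped, while the RHOXF1 arrays at 48 h lay above those at 24 h by 0.32 without passing the test (limma adjusted p = 0.118). The change in RHOXF2 cells exceeded the control change by 1.09 (adjusted p = 0.0168) and, in the other cluster, by 1.28 (adjusted p = 0.00914).

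No cluster changed differently over time in RHOXF2 than in RHOXF1 cells by limma, and 373 had an unadjusted p under 0.05, fewer than the 1060.7 expected by chance. Without RHOXF2 replicate 2 at 24 h or without RHOXF2 replicate 3 at 48 h the count was 1, which was ANKRD1. The count of 3 against control cells was 0 with cyclic loess scaling and 0 without control replicate 3 at 24 h. It was 1 without RHOXF2 replicate 1 at 24 h, without RHOXF2 replicate 1 at 48 h, without control replicate 1 at 24 h, without control replicate 1 at 48 h or without control replicate 2 at 48 h.

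The general time change could be read in RHOXF2 arrays at clusters chosen by the change in RHOXF1 cells. RHOXF2 arrays entered that choice only through limma's pooled spread. Of the 650 clusters that rose in RHOXF1 cells, 644 read higher at 48 h in RHOXF2 cells and 645 in control cells, with medians of 0.36 and 0.51. Of the 287 that fell in RHOXF1 cells, 276 read lower at 48 h in RHOXF2 cells and 285 in control cells, with medians of -0.31 and -0.41. The change was smaller in RHOXF2 than in control cells at 523 of the 650 and 235 of the 287, and the difference passed the test by limma at none of them (92 of the 650 and 41 of the 287 had an unadjusted p under 0.05). Over all 21214 clusters, 1857 had such a p for this difference. Without replicate 3 at 48 h the RHOXF2 medians were 0.42 and -0.39, still smaller in size than the control medians.

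The same clusters were also read on single arrays. Averaged over the 650 clusters and set against the 24 h mean of the same vector, RHOXF2 arrays at 48 h lay at 0.433, 0.465 and 0.250, and control arrays at 48 h at 0.446, 0.541 and 0.623. Averaged over the 287, RHOXF2 arrays at 48 h lay at -0.416, -0.403 and -0.146, and control arrays at 48 h at -0.389, -0.524 and -0.457. In both sets replicate 3 of RHOXF2 at 48 h was the array nearest to 24 h. RHOXF2 replicates 1 and 2 lay within the control range for the falls, and for the rises replicate 1 lay just below it and replicate 2 inside it.

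**Figure D5:**
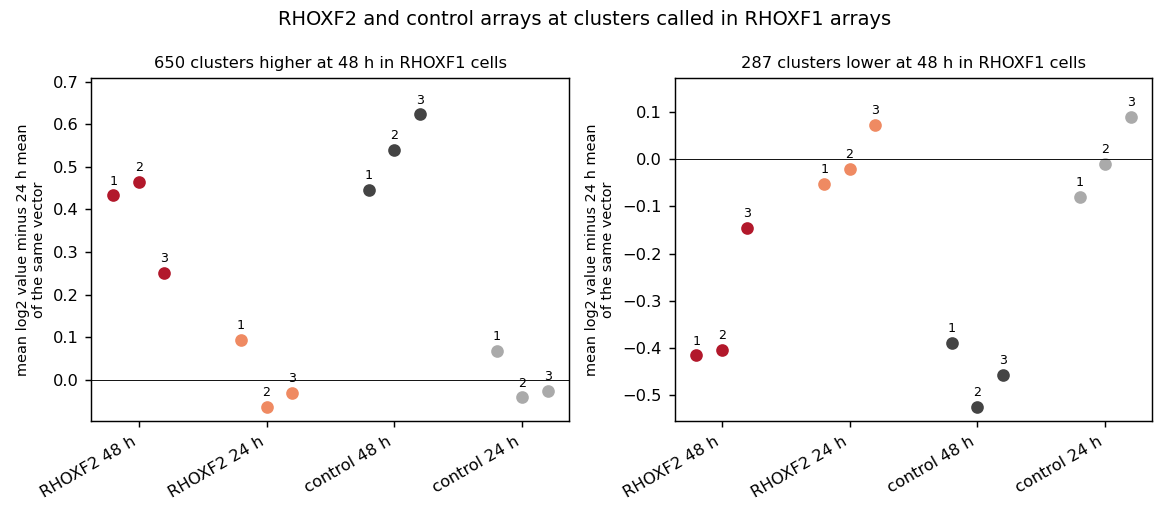
Mean log2 value of each array over the clusters that rose (left panel, 650) or fell (right panel, 287) in RHOXF1 cells, minus the 24 h mean of the same vector (vertical axis), for RHOXF2 and control arrays at 48 h and 24 h, with 1 numbered point per array. RHOXF2 replicate 3 at 48 h lies at 0.250 and -0.146, nearer to the 24 h arrays than any other array plotted at 48 h.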

How the data were processed

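Total RNA of 18 samples, all with an RNA integrity number above 7 per the labels, was read on 1 array each. The deposited values are log2 RMA levels, a method that corrects background, normalizes and summarises probes per transcript cluster, and the submitters' processing notes name Affymetrix Expression Console 3.1. The genome build behind them is not given in the sources used here. The sample descriptions name a Human Gene ST array, and the series text an exon array.

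No cluster was filtered for low level and no array left out. Symbols came from the supplied probe table (19461 clusters with exactly 1 symbol, 1753 with several, 12083 with none), and 20133 of 20174 Entrez identifiers were in the reference gene table. Of the named clusters, 703 repeat another's values.

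The limma package (3.58.1, in R 4.3.3) gave 1 mean for each of the 6 groups over 18 arrays by lmFit and eBayes (12 residual and 6.5 prior degrees of freedom, prior SD 0.124). All p-values are two-sided and, where called adjusted, corrected by the Benjamini-Hochberg method over the 21214 named clusters. The number of arrays limits the precision. In simulated data, the fit recovered 62% of changes of 0.5 and 98% of changes of 1 on the log2 scale, 100 of each among 21214 clusters. The simulated noise was normal, independent between arrays and clusters, and equal in spread across groups, with no outlying array. The real arrays differ in this, so these percentages do not measure the power of the comparison.

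RHOXF1 and RHOXF2 were always named. The rule took the 15 largest rises and 15 largest falls that passed, carried exactly 1 symbol and had no overlap between times, by the brightest such cluster. It added up to 5 genes in each direction from the differences between vectors, the 4 members with the smallest p of each of 40 gene lists, and every chaperone gene. The comparison and the lists were chosen with earlier results of these data known. Alternatives were other scalings, filters, fits and replicate blocks, and each array left out in turn.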

Additional observations from a re-analysis of the deposited data

Results flagged for a closer look

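The change from 24 h to 48 h differed between RHOXF2 and control cells, by limma's test of the difference itself over all 21214 clusters, for 3 clusters. For ANKRD1 the difference was 1.89 on the log2 scale (adjusted p = 0.0168), and all 3 RHOXF2 arrays at 48 h lay above every control array. For the brighter RFPL4A cluster it was 1.09 (adjusted p = 0.0168) and for the other 1.28 (adjusted p = 0.00914), again with all 3 RHOXF2 arrays at 48 h above every control array. The difference passed under 11 of 20 alternatives for ANKRD1, 9 of 20 for the brighter RFPL4A cluster and 17 of 20 for the other. All 3 lost it with only 12 arrays fitted and with cyclic loess. The brighter RFPL4A cluster also lost it with a replicate block within each time and with any of 8 arrays left out. ANKRD1 also lost it without RHOXF2 replicate 1 at 24 h or at 48 h. The same held without any control array at 24 h, or without control replicate 1 or 2 at 48 h. The other RFPL4A cluster also lost it without control replicate 3 at 24 h.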

How the results depend on the processing

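The count of 264 clusters that passed between 48 h and 24 h stayed within 1.5 times under repeated quantile normalization, cyclic loess, a filter on level, a trended robust prior and exactly 1 symbol (222 to 391). It was 420 with each array centred on its median and 10 with only the 6 RHOXF2 arrays fitted. In that fit 3 of the 15 largest rises and 3 of the 15 largest falls still passed. It has fewer residual degrees of freedom and takes the spread from RHOXF2 arrays alone. Why the count was lower was not tested. Leaving out 1 array gave 4 to 801. Residuals of same-numbered RHOXF2 arrays at 48 h and 24 h correlated at -0.055, 0.113 and -0.066. These values show no clear pairing of the times, and 3 arrays a group cannot settle it. Residuals of same-numbered RHOXF2 and control arrays correlated at -0.346, 0.034 and -0.267 at 48 h, and at 0.504, 0.134 and 0.157 at 24 h, where all 3 were positive. For RHOXF2 and RHOXF1 arrays the values were 0.238, 0.244 and -0.087 at 48 h, and 0.519, 0.062 and 0.134 at 24 h. A replicate block gave 438 and a block within each time 690. The count of 3 against the control change was 0 with only 12 arrays, 0 with cyclic loess and 0 among clusters above the median level, which leaves out ANKRD1 and RFPL4A by construction. It was 0 to 3 leaving out 1 array, and 4 with the replicate block, while a block within each time ended the call of the brighter RFPL4A cluster. The count of 0 against the RHOXF1 change was 1 with either block, with centred arrays or with exactly 1 symbol, and 0 to 1 leaving out 1 array. The cluster was ANKRD1 each time.

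Signs of reported differences turned for genes that had not passed between 48 h and 24 h. Leaving out 1 RHOXF2 array gave -0.0895 to 0.956 for RHOXF1, -0.0937 to 0.0614 for HSPA2, -0.0763 to 0.0410 for HSPA4L, -0.132 to 0.0256 for DNAJB4, -0.0311 to 0.0835 for the HSPA1A and HSPA1B cluster, and -0.390 to 0.107 for the GAS5 and SNORD80 cluster. Repeated quantile normalization gave 0.0154 for HSPA2, 0.0419 for HSPA4L and 0.00869 for FKBP4, centred arrays 0.0253 for HSPA2 and 0.0170 for HSPA4L, and cyclic loess 0.0241 for HSPA4L. The cause was not tested. The difference of EEF1A2 from the control change, which did not pass, kept its sign under 17 of 21 alternatives. Over the named genes, each in the comparison that named it, and their alternatives, 3063 values kept direction and side of the threshold, 251 no longer passed, 145 newly passed and 20 turned. The scalings moved the median over all clusters to between 0.01 and 0.05.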
